A study of Homo sapiens with 3 samples.

Results

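The subject is a set of 10 genes for the enzymes that break down the matrix around cells and for their inhibitors. It holds 5 matrix metalloproteases (MMP1, MMP2, MMP9, MMP10 and MMP14), urokinase (PLAU) and its receptor (PLAUR), and 3 tissue inhibitors of metalloproteases (TIMP1, TIMP2 and TIMP3). The genes were listed by name, with earlier results of these data known. Every probe set annotated to exactly 1 of these symbols was taken. That gave 28 of the 49395 probe sets on the array and 10 of the 18132 genes with such a probe set. A probe set is a group of short probes read together as 1 measurement of a transcript.

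Expression was measured on Affymetrix 3' arrays in KYSE150, an established line from a human squamous carcinoma of the oesophagus, grown with fetal calf serum. The cells were transfected for 48 h with vector alone (Control), with pcDNA3.1 carrying LOXL2 in its wild-type form (LOXL2 WT), or with pcDNA3.1 carrying LOXL2 delta72, whose sequence change the labels do not describe. LOXL2 is lysyl oxidase like 2, an amine oxidase that crosslinks collagen. Each condition has 1 array, so there is no replicate spread, no test was possible, and every difference below is between single arrays. The share of cells that took up a plasmid is not given, and fewer expressing cells and less RNA per cell cannot be told apart in RNA of whole cultures.

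Matrix metalloproteases are zinc enzymes that are mostly secreted as inactive precursors and, between them, cut most components of the matrix. Urokinase is a serine protease that, bound to its receptor on the cell surface, turns plasminogen into plasmin, which digests fibrin and can activate several metalloproteases. The tissue inhibitors bind the active site of metalloproteases. In squamous carcinomas these genes are studied for their part in invasion.

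The deposited values are log2 intensities, and their medians were 5.95 (Control), 5.93 (LOXL2 WT) and 5.94 (LOXL2 delta72). The transfected gene read far higher on both LOXL2 arrays at 3 of its 4 probe sets, the brightest at 7.46, 14.05 and 14.06 in the same order. The fourth went the other way, at 8.81, 8.32 and 8.66. Of the 10 squamous epithelial markers listed, 7 had a probe set of their own and all 7 lay above the filter used here, a mean log2 intensity at or above the 40th percentile of the array (5.27). Of 10 fibroblast and stromal markers, 1 did (PDGFRB), and their summed linear intensity was 228 on the Control array, 232 on the LOXL2 WT array and 224 on the LOXL2 delta72 array. Of 7 leukocyte markers, 3 did, and their sum was 655, 512 and 562. CD68, a lysosomal gene that many cell types carry, made up most of it, while PTPRC, which defines leukocytes, read 2.83, 3.05 and 3.08, below the filter. Of 6 endothelial markers, 3 did, with sums of 238, 234 and 234. The part of such cells in the differences was not tested.

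The array also carries 23 background probe sets, which match no transcript and hold from 3 to 25 G and C bases per probe. The 9 with 17 or more G and C bases all read lower on the LOXL2 WT array than on the Control array, by a log2 difference between -0.29 and -0.18. They read lower on the LOXL2 delta72 array too, by -0.17 to -0.09. These 9 thus had the order Control, LOXL2 delta72, LOXL2 WT from high to low, which is also the commonest order among the probe sets of the 10 genes. The base composition of the genes' own probes is not given in the sources used here, and the part of this background shift in their differences was not tested.

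Of the 10 genes, 6 had signal above the filter, and all 6 read lower with LOXL2 WT than with the vector, beside 51.7% of all genes. They were MMP2, MMP14, PLAU, PLAUR, TIMP1 and TIMP2, with 19 probe sets above the filter. Their median log2 difference was -0.38, against -0.01 over the 12232 genes above the filter. None reached 1.5-fold lower by its brightest probe set, where 0.867% of all genes did, and the closest was MMP14 at 1.48-fold. At 1.2-fold, a limit chosen after the values were seen (log2 0.26), 5 of the 6 were lower and TIMP1 was not, beside 11.4% of all genes (15.2% with the arrays set to a common median). The count depends on that limit, since at 1.3-fold 3 of the 6 were lower (MMP2, MMP14 and PLAU), beside 4.37%. Without _s_at and _x_at probe sets, which can match several transcripts, 4 were lower at 1.2-fold, beside 11.9% of all genes. The count covers the 6 bright genes and not the set of 10. Since the 10 genes were chosen with earlier results of these data known, the comparison with all genes is not independent of that choice.

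The same direction was seen at the level of probe sets. These are repeated readings of the same genes on the same arrays, so their counts are not independent of the counts of genes. Of the 19, 17 read lower with LOXL2 WT, beside 51.1% of all probe sets above the filter, and 13 were at least 1.2-fold lower, beside 11.8%. The lowest background probe set differed by -0.29, and these 13 lay below it. The share of all probe sets below that value was not counted. The order Control, LOXL2 delta72, LOXL2 WT from high to low was found in 14 of the 19, beside 24.3% of all probe sets. It held for 3 of 3 PLAU, 4 of 5 PLAUR, 3 of 4 MMP14, 2 of 2 MMP2 and 2 of 2 TIMP2 probe sets, and for 0 of 3 TIMP1 probe sets.

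**Figure D1:**
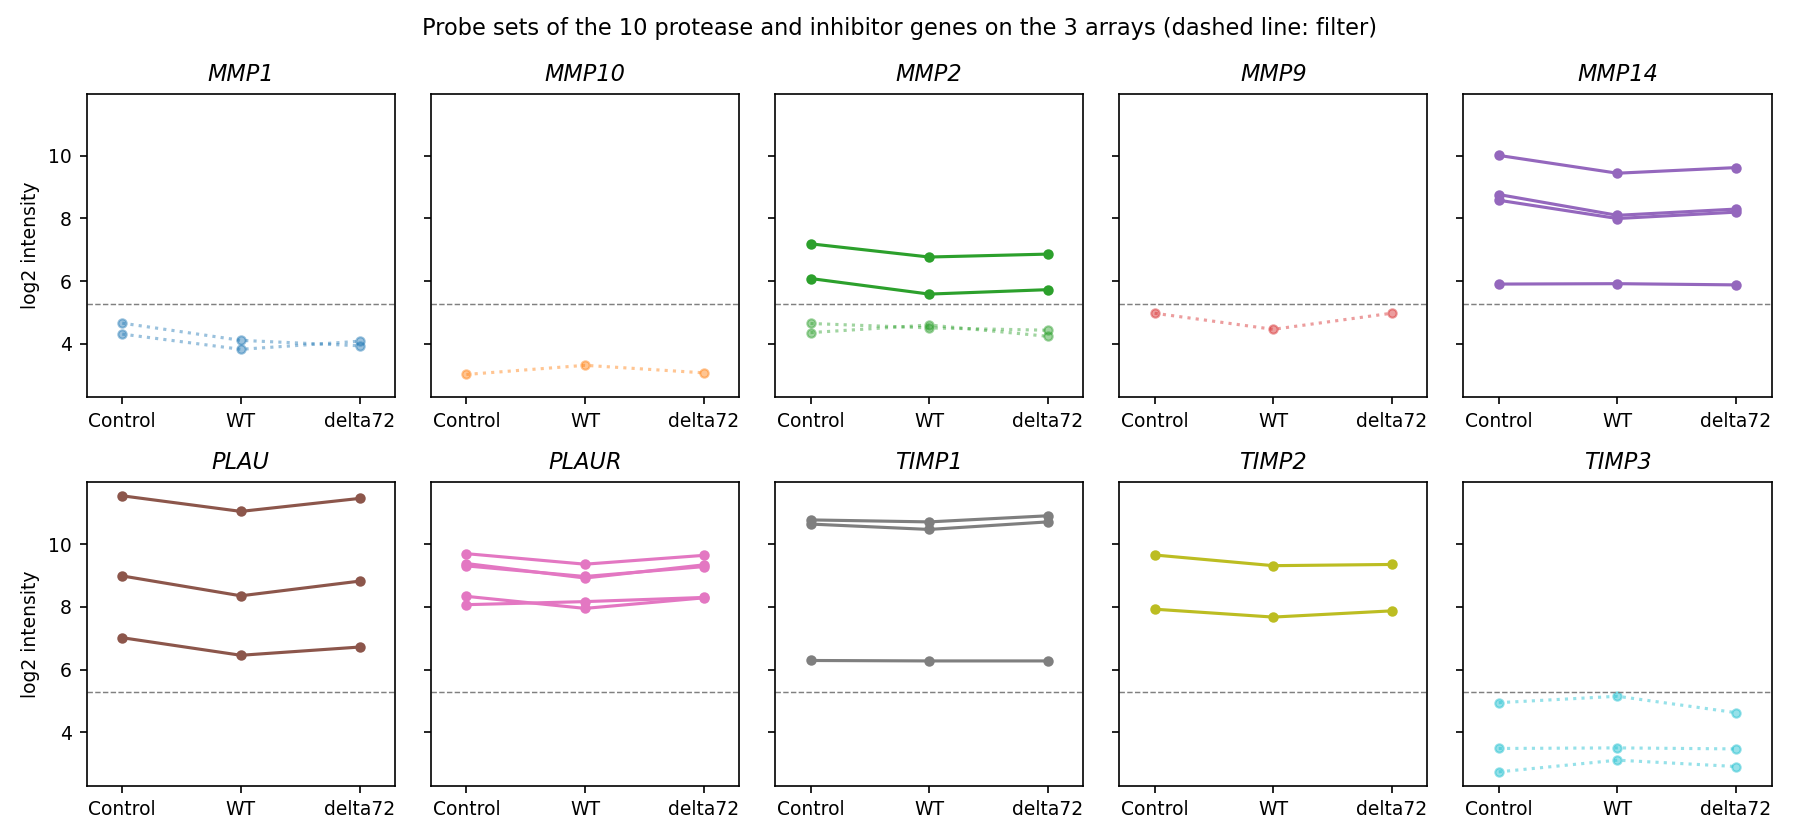
Log2 intensity (vertical axis) of all 28 probe sets of the 10 genes on the Control, LOXL2 WT and LOXL2 delta72 arrays (horizontal axis), 1 panel per gene and 1 line per probe set, with dotted lines for probe sets below the filter at 5.27 (dashed). The 3 PLAU lines are lowest at LOXL2 WT and differ from Control by -0.08, -0.17 and -0.30 at LOXL2 delta72, and the 3 bright MMP14 lines by -0.39, -0.46 and -0.38.

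PLAU, the urokinase gene, was lower with LOXL2 WT and less far below the vector with LOXL2 delta72. Its brightest probe set (11717886_a_at) read 11.54 on the Control array, 11.04 on the LOXL2 WT array and 11.45 on the LOXL2 delta72 array. The second read 8.99, 8.35 and 8.82, and the third 7.02, 6.46 and 6.72. The LOXL2 WT array was thus the lowest for all 3 probe sets and the Control array the highest.

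The PLAU difference between LOXL2 WT and Control was -0.50 at the brightest probe set, or 1.41-fold lower, with an SD of 0.07 over the 3 probe sets. Of the genes above the filter, 1.64% were as low or lower. With LOXL2 delta72 the differences from Control were -0.08, -0.17 and -0.30, and 31.5% of genes were as low or lower than the first of these. All 3 were lower, but the SD over the probe sets (0.11) exceeded the size of the brightest one's difference. How far PLAU lay below the vector with LOXL2 delta72 thus depends on the probe set.

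PLAUR encodes the receptor that holds urokinase at the cell surface by a lipid anchor. Its brightest probe set (11738053_x_at) read 9.69 on the Control array, 9.36 on the LOXL2 WT array and 9.64 on the LOXL2 delta72 array. Of its 5 probe sets, 4 shared this order and were lower with LOXL2 WT by -0.46 to -0.34, and by only -0.05 to -0.02 with LOXL2 delta72. The fifth (11742819_at) read 8.07, 8.17 and 8.30 and went the other way, at 0.10 and 0.23 above Control. The brightest difference with LOXL2 WT was 1.26-fold, with an SD of 0.22 over the 5 probe sets, and 6.33% of genes were as low or lower.

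MMP14, a metalloprotease anchored in the cell membrane that cuts collagen and activates the precursor of MMP2, was lower with both LOXL2 forms. Its brightest probe set (11725988_at) read 10.01 on the Control array, 9.44 on the LOXL2 WT array and 9.62 on the LOXL2 delta72 array. The next read 8.76, 8.10 and 8.30, and the third 8.58, 8.00 and 8.20. All 3 were highest on the Control array and lowest on the LOXL2 WT array.

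For these 3 probe sets the differences from Control were -0.57, -0.66 and -0.58 with LOXL2 WT, and -0.39, -0.46 and -0.38 with LOXL2 delta72. The dimmest of its 4 probe sets read 5.91, 5.92 and 5.88, which is 0.01 and -0.03 from Control. With it the SD over probe sets was 0.31 for LOXL2 WT and 0.20 for LOXL2 delta72. Of the genes above the filter, 1.01% were as low or lower than the brightest MMP14 probe set with LOXL2 WT and 2.42% with LOXL2 delta72.

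MMP2 encodes gelatinase A, which cuts denatured collagen and the type IV collagen of basement membranes. The brightest of its 4 probe sets (11743251_s_at) read 7.19 on the Control array, 6.77 on the LOXL2 WT array and 6.86 on the LOXL2 delta72 array, and the second read 6.09, 5.59 and 5.73. Both were highest on the Control array. They differed from Control by -0.42 and -0.50 with LOXL2 WT (1.34-fold lower at the brightest, SD 0.05) and by -0.33 and -0.36 with LOXL2 delta72 (1.26-fold lower, SD 0.02). The remaining 2 probe sets lay below the filter and differed by -0.14 and 0.24 with LOXL2 WT, so they disagreed in direction.

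TIMP2 inhibits metalloproteases and also bridges MMP14 and the MMP2 precursor at the cell surface. Its brighter probe set (11722786_s_at) read 9.65 on the Control array, 9.31 on the LOXL2 WT array and 9.35 on the LOXL2 delta72 array. The other read 7.93, 7.68 and 7.87. Both were lower with LOXL2 WT, by -0.34 and -0.25. With LOXL2 delta72 they parted, at -0.30 and -0.05, so the reading for that form depends on the probe set.

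TIMP1, a secreted inhibitor of many metalloproteases, differed least of the 6 between LOXL2 WT and Control. Its brightest probe set (11715360_x_at) read 10.77 on the Control array, 10.71 on the LOXL2 WT array and 10.90 on the LOXL2 delta72 array, and the next read 10.64, 10.47 and 10.71. Both were lowest with LOXL2 WT and highest with LOXL2 delta72. The differences from Control were -0.06 and -0.17 with LOXL2 WT and 0.13 and 0.07 with LOXL2 delta72. With LOXL2 WT both lay within the range of the background probe sets, and with LOXL2 delta72 both lay above its highest value of 0.05. That highest value came from a background probe set that read only 2.36 on the Control array. Of the genes above the filter, 24.8% were as high or higher than the brightest TIMP1 probe set with LOXL2 delta72. The dimmest probe set differed by -0.01 from Control on both arrays.

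**Figure D2:**
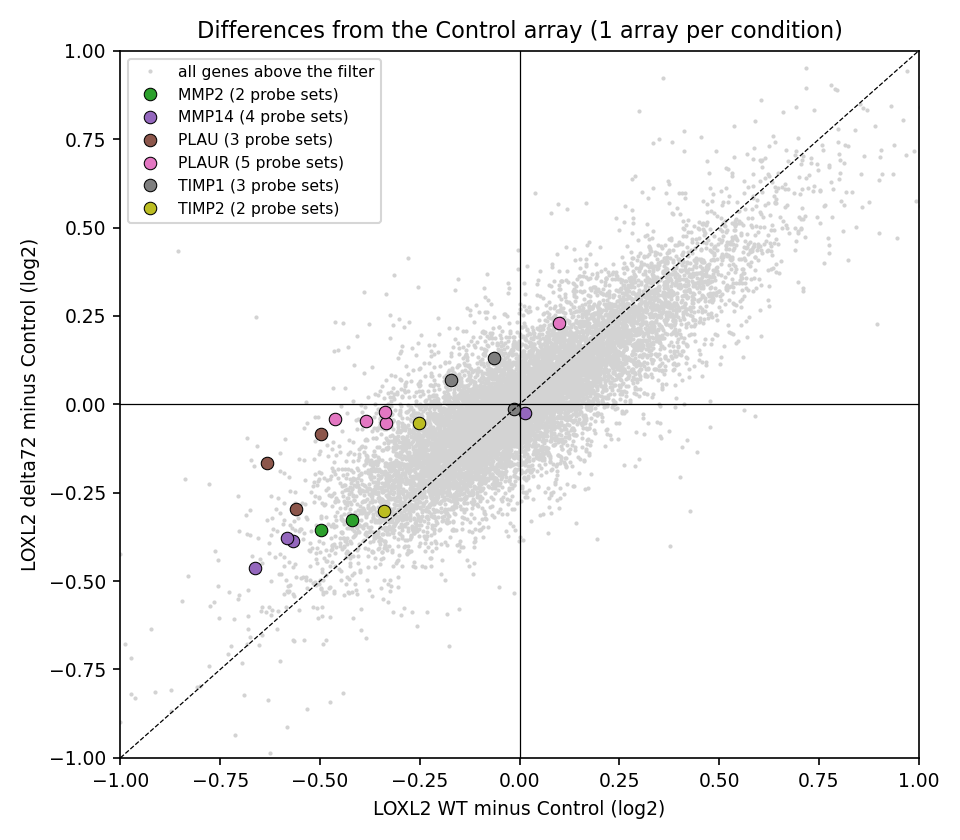
Log2 difference of LOXL2 delta72 from Control (vertical axis) against that of LOXL2 WT from Control (horizontal axis) for the 19 probe sets above the filter (coloured points) and all 12232 genes (grey, axes limited to 1 either way). Both axes use the same Control array, so the slope of the grey cloud is no result. Of the 19 points, 17 lie left of the dashed line of equal differences, among them all those of PLAU, PLAUR and MMP2.

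MMP1, MMP9, MMP10 and TIMP3 had no probe set above the filter. Their 7 probe sets read between 2.75 and 4.98 on the Control array, and background probe sets with up to 17 G and C bases read up to 4.99 there. Whether any of these 4 genes was detected is not known, and their differences are given for completeness.

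MMP1, the interstitial collagenase, read 4.66, 4.12 and 3.94 on the Control, LOXL2 WT and LOXL2 delta72 arrays at its brighter probe set and 4.32, 3.83 and 4.09 at the other. Control was the highest array for both, and the LOXL2 forms changed places between them. MMP9, gelatinase B, read 4.98, 4.47 and 4.98 on its single probe set, lowest with LOXL2 WT. MMP10, stromelysin-2, read 3.03, 3.32 and 3.08 on its single probe set, highest with LOXL2 WT.

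TIMP3, an inhibitor that stays bound to the matrix, read 4.95, 5.15 and 4.63 at its brightest probe set, 3.49, 3.51 and 3.48 at the next, and 2.75, 3.12 and 2.92 at the last. LOXL2 WT was the highest array for all 3. The differences at the brightest were 0.20 with LOXL2 WT and -0.32 with LOXL2 delta72, and the probe sets did not share a direction for LOXL2 delta72.

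**Figure D3:**
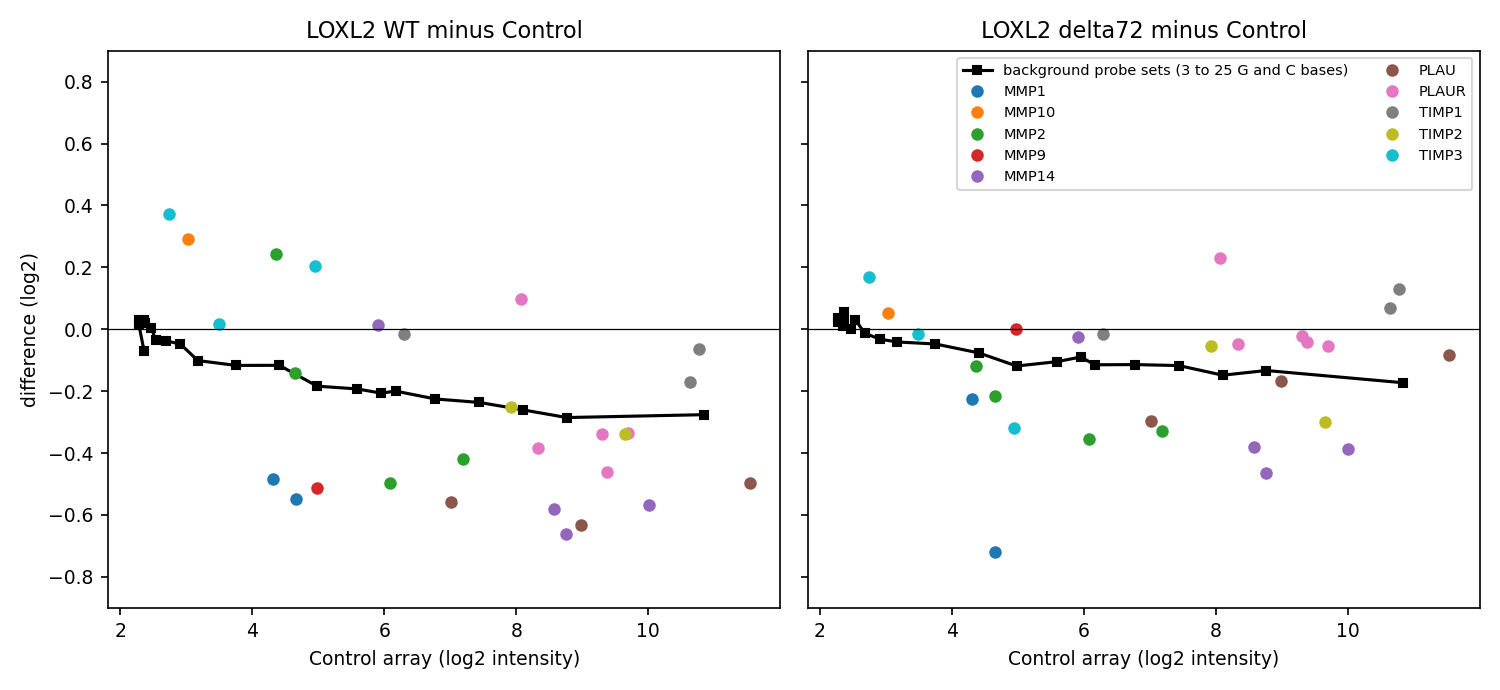
Log2 difference from Control (vertical axis) against the log2 intensity on the Control array (horizontal axis), for LOXL2 WT (left) and LOXL2 delta72 (right). Black squares joined by a line are the 23 background probe sets, and coloured points are the 28 probe sets of the 10 genes. With LOXL2 WT the background line falls to -0.29, and 13 of the 19 probe sets above the filter lie below that value. The share of all probe sets below it was not counted.

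LOXL2 delta72 read less far from the vector than LOXL2 WT for most of these genes. Over the 6 genes above the filter the median difference from Control was -0.19 with LOXL2 delta72, against 0.00 over all genes. At 1.2-fold 3 of the 6 were lower, MMP14, MMP2 and TIMP2, beside 7.75% of all genes (10.4% with a common median). At 1.3-fold 1 was, MMP14, beside 2.66%, and 0 reached 1.5-fold, beside 0.499%. The count at 1.2-fold was 2 with the median over probe sets, beside 7.41% of all genes, and 2 without _s_at and _x_at probe sets, beside 8.15%. Of the 19 probe sets, 7 lay below the lowest background difference of -0.17. They were 3 of MMP14, 2 of MMP2, 1 of PLAU and 1 of TIMP2. The share of all probe sets below -0.17 was not counted.

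Set directly against each other, the LOXL2 arrays differed most for urokinase and its receptor among the 6 genes above the filter. This comparison does not use the Control array. All 6 genes read higher with LOXL2 delta72 than with LOXL2 WT, beside 50.4% of all genes, with a median of 0.19. At 1.2-fold 2 of the 6 were higher, beside 3.11% of all genes, and at 1.3-fold 1, PLAU, beside 0.842%. PLAU was at 0.41 (1.33-fold, SD 0.11 over 3 probe sets), and 0.597% of genes were as high or higher. PLAUR followed at 0.28 (1.22-fold, SD 0.10 over 5 probe sets), and all 5 of its probe sets were higher, from 0.13 to 0.42.

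TIMP1 (0.19) and MMP14 (0.18) were next in this comparison, and MMP2 (0.09) and TIMP2 (0.04) last. The SD over probe sets was 0.13 for TIMP1 and 0.12 for MMP14. It describes probes on the same arrays, so the order of PLAUR, TIMP1 and MMP14 was not tested. The background probe sets with 17 or more G and C bases were also higher with LOXL2 delta72, by 0.07 to 0.15. Of the 19 probe sets, 13 lay above 0.15, among them all 3 of PLAU and 4 of the 5 of PLAUR. The share of all probe sets above 0.15 was not counted.

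The 6 genes differed among themselves in how much of the LOXL2 WT difference appeared with LOXL2 delta72. PLAU stood at -0.50 and -0.08 and PLAUR at -0.34 and -0.05. MMP14 stood at -0.57 and -0.39, MMP2 at -0.42 and -0.33, and TIMP2 at -0.34 and -0.30. Both values of each gene are from its brightest probe set and share the Control array. The contrast between these groups of genes was seen in the data and was not tested. It also depends on the probe set. The dimmer TIMP2 probe set stood at -0.25 and -0.05, and the third PLAU probe set at -0.56 and -0.30.

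Reference sequence just before the gene starts is shown for the urokinase genes and MMP14, which read lower together with LOXL2 WT, and for TIMP1, which did not reach 1.2-fold. RefSeq entries (GRCh38.p14) were matched for 6 of the 10 genes. The 250 bases before each start were searched on both strands for 4 short motifs known from protease promoters. They were the AP-1 site TGANTCA, the PEA3 (ETS family) site AGGAAG, the GC box GGGCGG and the TATA box TATAAA. None of these motifs contains another. Among all 35116 entries of the same length, 6.57% held the AP-1 site, 28.7% the PEA3 site, 42.6% the GC box and 10.7% the TATA box. Capitals mark the matches, and each sequence runs 5′ to 3′ on the strand of its gene.
PLAU, chr10:73910882-73911131, plus strand: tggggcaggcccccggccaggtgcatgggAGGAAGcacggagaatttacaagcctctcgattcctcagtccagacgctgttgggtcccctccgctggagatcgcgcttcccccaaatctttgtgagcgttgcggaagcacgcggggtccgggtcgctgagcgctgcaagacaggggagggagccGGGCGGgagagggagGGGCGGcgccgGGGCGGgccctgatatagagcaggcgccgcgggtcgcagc
PLAUR, chr19:43670170-43670419, minus strand: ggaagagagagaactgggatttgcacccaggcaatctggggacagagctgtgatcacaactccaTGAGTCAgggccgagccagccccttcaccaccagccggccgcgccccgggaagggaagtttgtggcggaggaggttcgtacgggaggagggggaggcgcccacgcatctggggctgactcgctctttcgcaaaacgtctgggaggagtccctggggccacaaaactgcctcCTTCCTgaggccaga
MMP14, chr14:22836335-22836584, plus strand: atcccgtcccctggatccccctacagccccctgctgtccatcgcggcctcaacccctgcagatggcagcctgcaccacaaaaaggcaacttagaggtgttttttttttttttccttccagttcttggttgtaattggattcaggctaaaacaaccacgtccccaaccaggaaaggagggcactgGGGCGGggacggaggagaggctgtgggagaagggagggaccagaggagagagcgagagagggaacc
TIMP1, chrX:47582186-47582435, plus strand: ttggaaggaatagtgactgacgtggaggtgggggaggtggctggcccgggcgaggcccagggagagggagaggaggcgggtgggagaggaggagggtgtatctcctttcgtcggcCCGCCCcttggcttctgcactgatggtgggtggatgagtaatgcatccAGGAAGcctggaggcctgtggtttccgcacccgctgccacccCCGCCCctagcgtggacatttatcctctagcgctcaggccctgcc

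The PLAU window shown, the downstream of 2 entries for this gene, held 3 GC boxes, 66, 51 and 40 bases before the start, and 1 PEA3 site. The other PLAU entry held 0 matches of any of the 4. PLAUR held 1 AP-1 site, 186 bases before its start, and 1 PEA3 site on the opposite strand. MMP14 held 1 GC box and TIMP1 2 GC boxes and 1 PEA3 site. No motif of the 4 was shared by PLAU, PLAUR and MMP14. Of the dim genes, MMP10 held 1 AP-1 site at 67 bases and 1 TATA box at 31 bases before its start, and TIMP3 held 5 GC boxes. A match describes letters only and says nothing of binding in these cells.

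Other genes of the same pathways were read from 5 lists. Of 18 further matrix metalloproteases, 7 lay above the filter, and 6 of the 7 were lower with LOXL2 WT, beside 51.7% of all genes, with a median of -0.21. With LOXL2 delta72 4 of the 7 were lower, beside 49.8% of all genes, with a median of -0.04. At 1.5-fold, MMP28, known as epilysin and made by keratinocytes, was the only one, at -0.68 with LOXL2 WT and -0.64 with LOXL2 delta72 (SD 0.52 and 0.39 over 2 probe sets). Its other probe set read 0.05 and -0.09, so the MMP28 difference rests on 1 probe set. The membrane-anchored MMP15 read -0.28 and -0.12, MMP25 -0.23 and -0.19, and MMP17 -0.21 and 0.01. The other MMP15 probe set stood at -0.03 and 0.01.

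The remaining plasminogen genes had 15 of 19 above the filter, 12 of them lower with LOXL2 WT (median -0.16, beside 51.7% of all genes lower) and 9 lower with LOXL2 delta72 (median -0.05, beside 49.8%). With LOXL2 delta72 against LOXL2 WT, 14 of the 15 were higher, beside 50.4% of all genes, with a median of 0.09, which lies below the highest background difference of 0.15. LRP1, an endocytic receptor that clears many extracellular ligands, was at -0.61 with LOXL2 WT (1.53-fold lower, SD 0.29 over 2 probe sets) and -0.43 with LOXL2 delta72. The related receptor VLDLR was at -0.53 and -0.05 on 1 probe set. THBD, thrombomodulin, was at -0.45 and -0.38, and SERPINB5, maspin, at -0.31 and -0.33. The other probe set stood at -0.20 and -0.04 for LRP1, -0.21 and -0.20 for THBD, and -0.71 and -0.53 for SERPINB5.

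Of 10 genes above the filter that act on metalloproteases, 4 were lower with LOXL2 WT, beside 51.7% of all genes, and 5 with LOXL2 delta72, beside 49.8%, shares near those of all genes. SPOCK1, a proteoglycan, was the highest, at 0.72 with LOXL2 WT and 0.95 with LOXL2 delta72. LCN2, lipocalin 2, which binds MMP9, was at 0.36 and 0.92, each on 1 probe set. BSG, a surface protein known for inducing metalloproteases, was lower, at -0.39 and -0.17 (SD 0.10 and 0.04 over 6 probe sets), and the tetraspanin CD9 was at -0.36 and -0.33.

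Of 15 ADAM and ADAMTS proteases above the filter, 10 were lower with LOXL2 WT (median -0.08, beside 51.7% of all genes lower) and 8 with LOXL2 delta72 (median -0.12, beside 49.8%). The largest differences were ADAMTS15 at -0.37 and -0.21, ADAMTS1 at 0.29 and 0.21, ADAMTS6 at 0.24 and 0.28, and ADAM8 at -0.11 and -0.24. The direction for ADAM8 depends on the probe set. Its 3 probe sets above the filter ran from -0.11 to 0.42 with LOXL2 WT and from -0.24 to 0.42 with LOXL2 delta72.

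Among 19 other pericellular proteases and inhibitors above the filter, 18 were lower with LOXL2 WT (median -0.22, beside 51.7% of all genes lower) and 15 with LOXL2 delta72 (median -0.15, beside 49.8%). Both medians lie within the range of the background probe sets. SLPI, a secreted inhibitor of leukocyte elastase, was the lowest, at -0.81 and -0.80, and CST6, cystatin M/E, the highest, at 0.41 and 0.72, each on 1 probe set. The kallikrein KLK10 was at -0.51 and -0.44 and the lysosomal protease CTSD at -0.44 and -0.39.

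**Figure D4:**
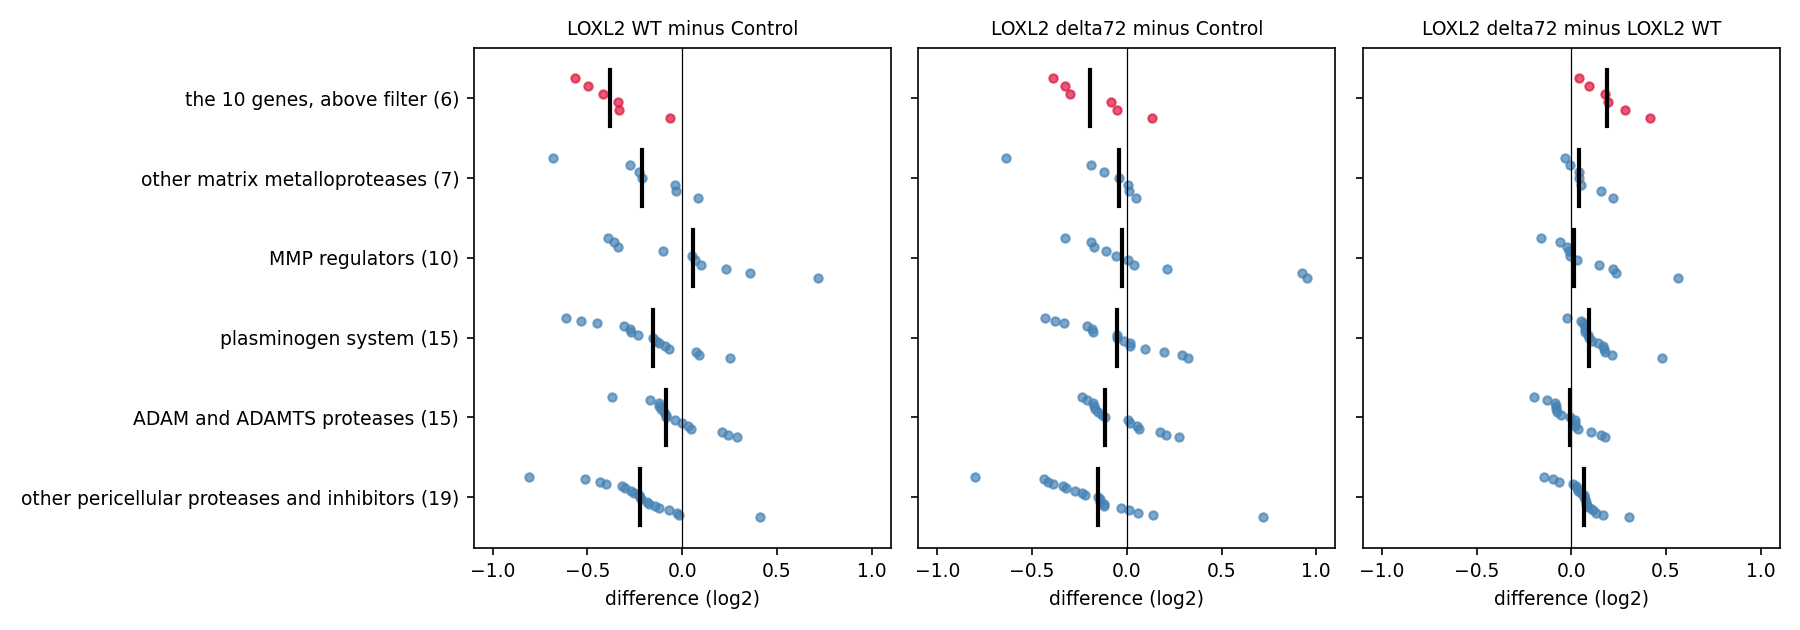
Log2 differences of single genes above the filter (points, brightest probe set) in the 10-gene set (red) and in 5 lists of related genes (blue), with the number of genes in brackets and the median as a black bar, for the 3 comparisons (panels). The 6 red points are all below 0 with LOXL2 WT against Control and all above 0 with LOXL2 delta72 against LOXL2 WT.

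The genes most like the set's most variable members were found by the distance between their differences from Control, over the 3 arrays only. MMP1 spanned the most between its highest and lowest array (0.72), and the 5 nearest genes were LGR4, TSPAN1, TFAP2A, ALDH3B2 and FERMT1, at distances of 0.05 to 0.07 in log2 units. MMP1 itself lay below the filter. Of the members above it MMP14 spanned the most (0.57), and RGS3, CITED4, C16orf46, CRACR2A and ARHGAP19 were nearest, at 0.02 to 0.04. The MMP14 search was added after the values were seen. With 3 arrays many genes share a pattern.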

How the data were processed

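Gene expression in 3 KYSE150 cultures, 1 array each, was taken from 1 table of 49395 probe sets. The authors deposited log2 intensities, per the values, which lay between 2.07 and 14.56. Per the submitters' processing notes the tools were Partek and Affymetrix Expression Console, and the normalization method was not given in the sources used here. Control probe sets (102) were left out of the filter. Genes were named from 44988 probe sets paired with 1 symbol in the platform annotation, and 1832 with several and 2473 without a listed symbol were not used.

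The brightest probe set on average stood for a gene, and genes whose mean lay at or above the 40th percentile without control probe sets (5.27) were kept, 12232 in all. The SD over a gene's probe sets above the filter describes probes on the same arrays, not replicates. The number of arrays limits the precision. All 10 genes are named, with up to 4 genes of each related list by their largest difference and the 5 nearest genes. The 10 genes and the lists were chosen with earlier results of these data known. Counting was tested on simulated data at the 1.5-fold limit only, with planted differences larger than that limit. The simulated spread was taken from LOXL2 delta72 against LOXL2 WT, the narrowest of the 3 comparisons. The counts at 1.2-fold and 1.3-fold were not tested in this way. Alternatives were another scaling, another choice of probe sets and other filters. Python 3.11.15, pandas 2.3.3 and statsmodels 0.14.6 were used.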

Additional observations from a re-analysis of the deposited data

How the results depend on the processing

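Each of the 6 genes above the filter was recomputed in 3 comparisons under 5 alternatives of scaling or probe choice, of which the lowess correction for level was chosen after seeing the data. The filters cannot alter these values. Of these 90 values, 6 were the same by construction, 3 moved by more than the pooled SD between probe sets (0.17, 0.15 and 0.11 for the 3 comparisons) and 0 called values changed sign. They were PLAUR and TIMP2, each with LOXL2 delta72 against LOXL2 WT (to 0.42 and 0.20), and TIMP2 with LOXL2 delta72 (to -0.05), all without _s_at and _x_at probe sets. MMP2 with LOXL2 delta72 against LOXL2 WT, at 0.09, was -0.01 with the median over probe sets. The medians over the set kept their sign in all 3 comparisons, from -0.48 to -0.34 for LOXL2 WT, -0.23 to -0.07 for LOXL2 delta72, and 0.14 to 0.22 between the forms.

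The 1.2-fold limit replaced a slightly higher one that was also set with the values known, under which fewer genes counted with LOXL2 delta72. At 1.3-fold, added after seeing the data, 3 genes were lower with LOXL2 WT (5 at 1.2-fold), 1 was lower with LOXL2 delta72 (3 at 1.2-fold) and 1 was higher with LOXL2 delta72 than with LOXL2 WT (2 at 1.2-fold). The shares of all genes at 1.3-fold were 4.37%, 2.66% and 0.842% in the same order. Without the filter, all 10 genes entered the counts at 1.2-fold. Then 1 was higher with LOXL2 WT (0 before), 5 were lower with LOXL2 delta72 (3 before) and 1 was lower with LOXL2 delta72 than with LOXL2 WT (0 before), because more genes were counted. The shares of all genes without the filter were 11.1%, 9.30% and 3.23% in the same order. At 1.5-fold lower with LOXL2 WT the count went from 0 to 1 with a common median (MMP14 at -0.61) or lowess (MMP14 at -0.59). With the median over probe sets it was 2, MMP14 at -0.62 and PLAU at -0.63. At the brightest probe set as deposited, MMP14 stood at -0.57 and PLAU at -0.50, and the limit is a log2 difference of 0.585. With LOXL2 delta72 the count at 1.5-fold lower went from 0 to 1 without the filter, by MMP1. The shares of all genes at 1.5-fold under these settings were not counted. With a common median the shares of all genes at least 1.2-fold lower and higher with LOXL2 WT were 15.2% and 10.8%, against 11.4% and 13.7% as deposited. With LOXL2 delta72 they were 10.4% and 8.90%, against 7.75% and 11.0%. No paired analysis was possible because each condition has 1 array. Low signal over background limits what can be said of MMP1, MMP9, MMP10 and TIMP3.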
